A study of Mus musculus with 8 samples.

Results

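Serpini1, Serpine2, Serpinb9, Plat, Plau and Plaur are the 6 plasminogen activator system genes described here. They were taken by symbol, 6 of 6 found among 22056 features. Their levels were read in tumour cells and in other cells of allografts at 3 sites. The 8 single-cell 3′ RNA libraries were made from grafts of N2N1G, a single cultured line of murine small cell lung cancer, grown in mice for 3 weeks. Brain allografts (2 libraries) and subcutaneous allografts (3 libraries, under the skin of the flank) were injected directly, whereas liver allografts (3 libraries) followed injection into the tail vein. In the liver comparisons, site and route of injection therefore cannot be told apart. Strain, age and treatment of the host mice are not given in the sources used here, nor is it stated that each library came from its own mouse. The p-values below thus measure the spread between libraries.

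A tumour cell was defined as a cell in which eGFP and Mycl transcripts, which mark the grafted line, made up at least 0.2% of the unique molecular identifiers (UMIs, the counted RNA molecules). Of 38460 deposited cells, 36797 passed the cell filter, 34719 of them tumour cells and 2078 under the threshold. Every gene of the 14-gene tumour list, which holds eGFP, Mycl and neuroendocrine genes such as Chga and Uchl1, was detected in the tumour cells of each library. The label host cells held less well for the cells under the threshold. In 3 of their 21 clusters (517 cells) the tumour markers led, and these clusters held 80.7%, 67.3% and 80.0% of such cells in the liver libraries and 99.2% and 96.1% in subcutaneous libraries 2 and 3, but 2.40% and 5.13% in the brain libraries and 24.5% in subcutaneous library 1. Host cells can therefore be described mainly for brain and for subcutaneous library 1. Tumour UMIs per library ranged from 21689091 to 62047017, and between 16 and 51 barcodes were shared by each of the 28 pairs of libraries.

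The plasminogen activators Plat (tissue-type) and Plau (urokinase) cut plasminogen into plasmin, a broad extracellular protease, and Plaur is the surface receptor that holds urokinase at the cell. Serpini1 encodes neuroserpin, an inhibitor of tissue-type activator made mainly by neurons, and Serpine2 encodes protease nexin 1, which inhibits thrombin, urokinase and plasmin. Serpinb9 encodes an intracellular inhibitor of granzyme B. In models of brain metastasis, plasmin formed by the host tissue can release Fas ligand and cleave the adhesion molecule L1CAM, and tumour serpins can block it.

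Per GENCODE M21 (GRCm38, the mm10 build), all members are protein-coding. Serpini1 lies on the plus strand of chromosome 3 (75557547 to 75643495) and Serpine2 on the minus strand of chromosome 1 (79794197 to 79861180). Plat lies on chromosome 8 (22757727 to 22782844), Plau on chromosome 14 (20836660 to 20843385), Plaur on chromosome 7 (24462484 to 24475968) and Serpinb9 on chromosome 13 (33003250 to 33017957), each on the plus strand. The start of Serpini1 stands 691 bases from that of Pdcd10, which runs the other way. Serpinb9 has close paralogs next to it, and how the deposited counting treated reads that match more than 1 copy was not examined, so its counts are uncertain.

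The promoters of Serpini1 and Serpine2 are shown because both had at least 433 UMIs in the tumour cells of each library. Each run is the 250 bases before the RefSeq start (GRCm38.p6), 5′ to 3′ on the gene's strand, with every CANNTG word (the E-box that basic helix-loop-helix factors can bind) in capitals. RefSeq gave an entry for 4 of the 6 members. For Serpine2 the RefSeq start differs from the GENCODE start given above (79861180), and the window shown lies within the GENCODE span of the gene.
Serpini1, chr3:75557243-75557492, plus strand: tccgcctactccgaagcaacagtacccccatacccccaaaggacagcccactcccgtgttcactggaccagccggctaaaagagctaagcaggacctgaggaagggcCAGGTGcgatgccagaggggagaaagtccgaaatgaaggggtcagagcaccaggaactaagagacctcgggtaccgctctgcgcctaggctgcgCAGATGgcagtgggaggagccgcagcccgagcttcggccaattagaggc
Serpine2, chr1:79858666-79858915, minus strand: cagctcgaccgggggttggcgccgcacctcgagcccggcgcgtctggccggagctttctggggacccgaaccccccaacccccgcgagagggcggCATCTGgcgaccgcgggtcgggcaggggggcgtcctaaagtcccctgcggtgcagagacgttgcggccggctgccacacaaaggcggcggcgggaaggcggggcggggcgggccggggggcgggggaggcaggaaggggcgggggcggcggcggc
CANNTG reads the same on both strands as a pattern. It occurred 2 times before Serpini1 and 1 time before Serpine2, and in 66.2% of all 32851 RefSeq promoters of this length. The word CAGCTG, a subset of CANNTG, occurred in neither window and in 13% of all. The GC content was 61.2% for Serpini1 and 78.8% for Serpine2, against a median of 52.4%. These are matches of letters and not measured sites.

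Tumour cells at all 3 sites carried transcripts of the 2 serpins that act outside the cell, and few tumour cells held a transcript of an activator, of the receptor or of Serpinb9. At least 1 UMI of Serpine2 was found in 23417 tumour cells (67.4%) and of Serpini1 in 9163 (26.4%). Plat was found in 125 tumour cells (0.360%), Plaur in 133 (0.383%), Serpinb9 in 50 (0.144%) and Plau in 8 (0.0230%). After thinning each cell to 3000 UMIs, 1048 of 33749 cells held both Serpini1 and Serpine2, where 994 would be expected if the 2 genes were spread independently. These shares count cells with a detected molecule, and not cells that express the gene. In macrophage-like and microglia-like cells, which should lack neuroserpin, a Serpini1 UMI was found in 0.457% of 656 cells of brain library 1 and in none of 160 cells of brain library 2, at median depths of 4091 and 3485 UMIs.

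**Figure D1:**
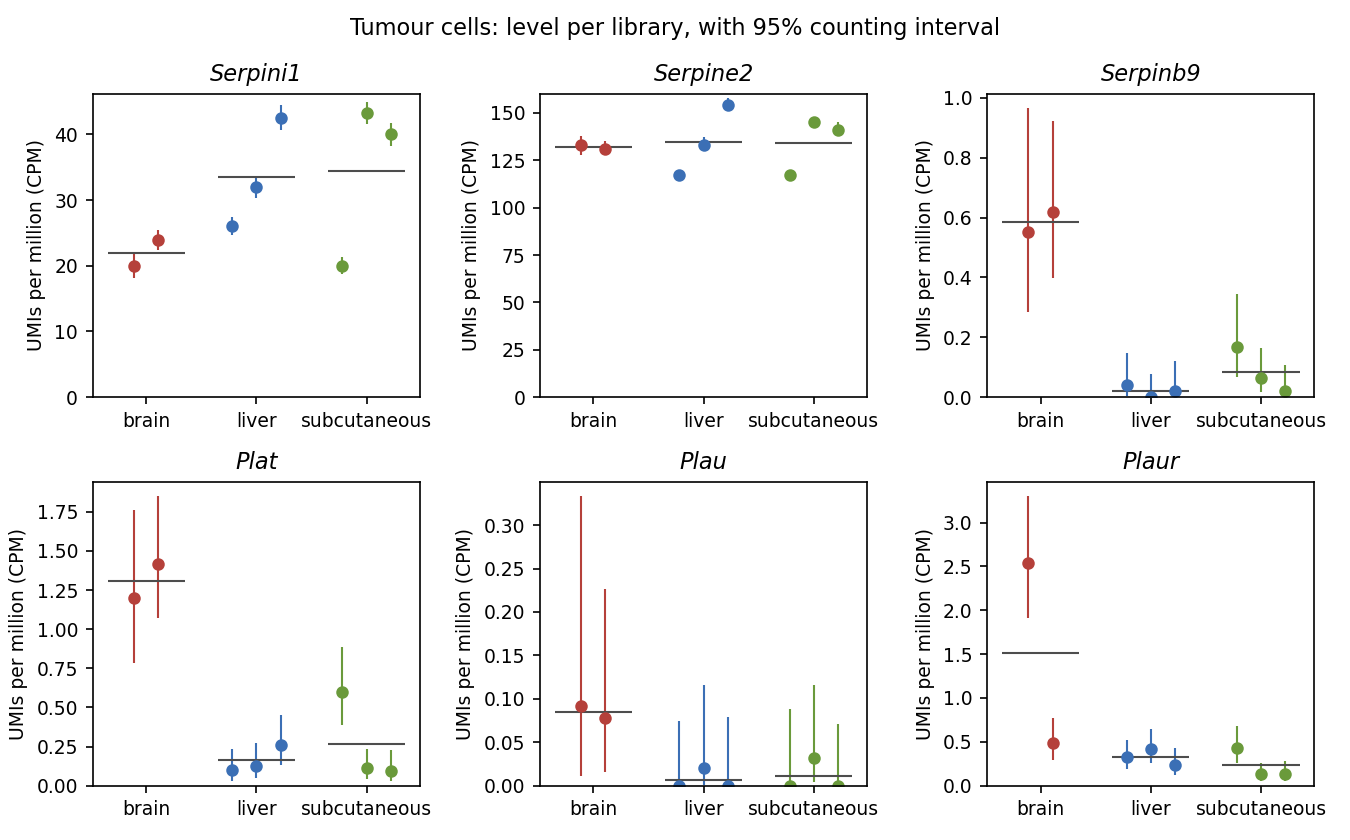
Level of each member in tumour cells (counts-per-million, CPM) in the 8 libraries. Points are libraries with the exact 95% Poisson interval of the count, horizontal bars are group means, and colours mark the sites. Serpine2 lies between 117 and 154 CPM in every library, and the Plat and Serpinb9 points of brain lie above those of liver and subcutaneous tissue.

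Plat, the tissue-type activator, was higher in brain tumour cells than in liver tumour cells. Scaled to counts-per-million (CPM) of all tumour-cell UMIs of a library, it stood at 1.20 and 1.42 in the brain libraries. The liver libraries held 0.101, 0.125 and 0.259 CPM, and the subcutaneous libraries 0.599, 0.113 and 0.0963 CPM. Both brain libraries lay above every other library, and subcutaneous library 1 stood apart from the other subcutaneous libraries. The summed brain count was 81 UMIs, 23 in liver and 37 in subcutaneous tissue. In edgeR's quasi-likelihood test with Benjamini-Hochberg adjustment over 13931 genes, the log2 fold change of brain against liver was 2.90 (SE 0.754, adjusted p = 0.0257). Against subcutaneous tissue it was 2.33 (SE 0.728), which missed the threshold of 0.05 (edgeR adjusted p = 0.0614). Without subcutaneous library 1 the latter became 3.61 with an edgeR adjusted p of 0.000482. The call against liver was lost without brain library 1 (adjusted p = 0.0884), brain library 2 (0.121), liver library 1 (0.0915) or liver library 2 (0.0939), at log2 values of 2.66 to 3.03. In tumour cells with no UMI of 24 endothelial, fibroblast and pericyte or smooth muscle markers, cell types in which Plat was high among the cells under the threshold, the values were 3.33 against liver (edgeR adjusted p = 0.00475) and 2.65 against subcutaneous tissue (adjusted p = 0.0143). Those cells numbered 1963 of 2418 and 3437 of 4060 in the brain libraries, and the set was chosen after seeing the data. That set does not cover astrocytes or oligodendrocytes. The astrocyte markers summed to 64.4 to 86.4 CPM in brain tumour cells, 17.5 to 21.5 CPM in liver and 36.4 to 42.0 CPM in subcutaneous tissue. Their part in the result was not tested.

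Plau, the urokinase gene, was close to the detection limit in tumour cells. The brain libraries held 2 and 3 UMIs, liver library 2 held 1, subcutaneous library 2 held 2, and the other 4 libraries none. A count of 0 allows between 0.0578 and 0.0719 CPM in those libraries (3 UMIs of the total). The ratio of brain to liver levels was 11.9 with a 95% counting interval of 1.33 to 562, which covers counting error only. Plau did not pass the filter on low counts and was not tested by site, so the tests below concern 5 of the 6 members.

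Plaur, the urokinase receptor, was high in brain library 1 alone. The brain libraries held 2.54 CPM (55 UMIs) and 0.491 CPM (19 UMIs). The liver libraries held 0.324, 0.418 and 0.237 CPM, and the subcutaneous libraries 0.432, 0.129 and 0.135 CPM. Brain library 2 stood just above liver library 2 and subcutaneous library 1. The log2 fold change of brain against subcutaneous tissue was 2.70 (SE 0.745, edgeR adjusted p = 0.0411), and against liver 2.05 (SE 0.727, adjusted p = 0.0743). Without brain library 1 the values were 1.13 (adjusted p = 0.441) and 0.49 (adjusted p = 0.735). The call against subcutaneous tissue held without brain library 2 or subcutaneous library 1 and was lost without each of the other 6 libraries, at edgeR adjusted p from 0.0639 to 0.441. The value against liver passed without brain library 2 (2.83, adjusted p = 0.0404) or subcutaneous library 1 (2.02, adjusted p = 0.0257). In brain library 1 the 14 macrophage and microglia markers summed to 562 CPM in tumour cells, against 87.9 CPM in brain library 2. The sums were 7.06 to 17 CPM in liver and 2.45 to 49.2 CPM in subcutaneous tissue, with no marker at 0 at any site. Of the brain tumour cells with a Plaur UMI, 46 of 61 (75.4%) also held a UMI of these markers, against 45.8% of all brain tumour cells. These pooled shares are not matched for library or depth. Brain library 1 gave 45 of the 61 cells and brain library 2 gave 16. Their median depth was 10787 UMIs, against 8243 for all brain tumour cells. Tumour cells with none of the marker UMIs were 495 of 2418 in brain library 1 and 3014 of 4060 in brain library 2. Among such cells, Plaur did not pass the threshold for brain against subcutaneous tissue (log2 1.93, edgeR adjusted p = 0.177).

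Serpinb9, the granzyme B inhibitor, was higher in brain tumour cells than at the other sites, from few molecules. The brain libraries held 12 and 24 UMIs (0.553 and 0.620 CPM). The liver libraries held 2, 0 and 1 UMIs, and the subcutaneous libraries 7, 4 and 1 UMIs (0.168, 0.0645 and 0.0193 CPM). The brain libraries lay above all others. The level in brain was 28.5 times that in liver, with a 95% counting interval of 9.01 to 145, and 7.73 times that in subcutaneous tissue (3.93 to 16.3). The edgeR test gave log2 4.54 against liver (SE 0.912, adjusted p = 0.00963) and 2.83 against subcutaneous tissue (SE 0.770, adjusted p = 0.0389). Against liver, the call was lost without brain library 2 (adjusted p = 0.0603). Against subcutaneous tissue it held without liver library 2 or subcutaneous library 1 and was lost without each of the other 6 libraries, at adjusted p from 0.0552 to 0.175. In tumour cells with no macrophage or microglia UMI the values were 4.35 (edgeR adjusted p = 0.0132) and 2.86 (adjusted p = 0.0523). Brain library 1 kept 495 of 2418 cells there. That set does not cover other host cells. The 6 MHC class II markers summed to 124 to 222 CPM in brain tumour cells, 0.911 to 40.2 CPM in liver and 0.177 to 88.5 CPM in subcutaneous tissue. Their part in the result was not tested. Tumour clusters T6 and T16, described below, held 6 of the 36 brain UMIs in 1.90% of the cells. 

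Serpine2, protease nexin 1, gave no called difference between the sites. The brain libraries held 133 and 131 CPM, the liver libraries 117, 133 and 154 CPM, and the subcutaneous libraries 117, 145 and 141 CPM. The groups overlapped fully. The log2 difference was -0.14 for brain against liver (SE 0.128, edgeR adjusted p = 0.459), -0.03 for brain against subcutaneous tissue (SE 0.128, adjusted p = 0.905) and 0.12 for liver against subcutaneous tissue (SE 0.114, adjusted p = 0.660). Of tumour cells thinned to 3000 UMIs, 31.6% ± 0.212 (SD, n = 2) held a Serpine2 UMI in brain, 33.2% ± 3.48 (n = 3) in liver and 32.2% ± 3.35 (n = 3) in subcutaneous tissue.

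Serpini1, neuroserpin, had its lower values in brain and in subcutaneous library 1. It stood at 20 and 23.9 CPM in the brain libraries and at 26.1, 32.0 and 42.5 CPM in liver. The subcutaneous libraries held 20, 43.2 and 40.0 CPM. Brain lay below every liver library, but overlapped with subcutaneous tissue through its library 1. The log2 fold change of brain was -0.72 against liver with an SE of 0.320 (edgeR adjusted p = 0.141), and -0.65 against subcutaneous tissue with an SE of 0.319 (adjusted p = 0.201). Neither passed the threshold. Without subcutaneous library 1 both passed, at -0.72 (adjusted p = 0.0109) and -0.92 (adjusted p = 0.00441). Leaving out that library also raised the number of genes called between brain and subcutaneous tissue from 2099 to 4754. Thinned to 3000 UMIs, 5.80% ± 0.509 (SD, n = 2) of brain, 9.30% ± 2.47 (n = 3) of liver and 9.55% ± 3.51 (n = 3) of subcutaneous tumour cells held a Serpini1 UMI. Its head-to-head neighbour Pdcd10, which was no member, stood at 73.2 and 76.4 CPM in brain and between 57.6 and 91.7 CPM elsewhere and passed in no contrast.

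In brain against liver, 2 of 5 tested members were called (Serpinb9 and Plat, both higher in brain), where 21.8% of all tested genes were called, 13.2% as higher and 8.56% as lower. In brain against subcutaneous tissue 2 of 5 were called (Serpinb9 and Plaur, both higher), against 15.1% of all genes, 8.94% as higher and 6.13% as lower. In liver against subcutaneous tissue 0 of 5 were called by edgeR, 0 of 5 at an unadjusted p under 0.05 and 0 by DESeq2, where 2.83% of all genes were called, 0.933% as higher and 1.90% as lower. There the log2 values of Serpinb9, Plat and Plaur were -1.70, -0.57 and 0.65. The 2 brain contrasts share the same brain libraries.

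**Figure D2:**
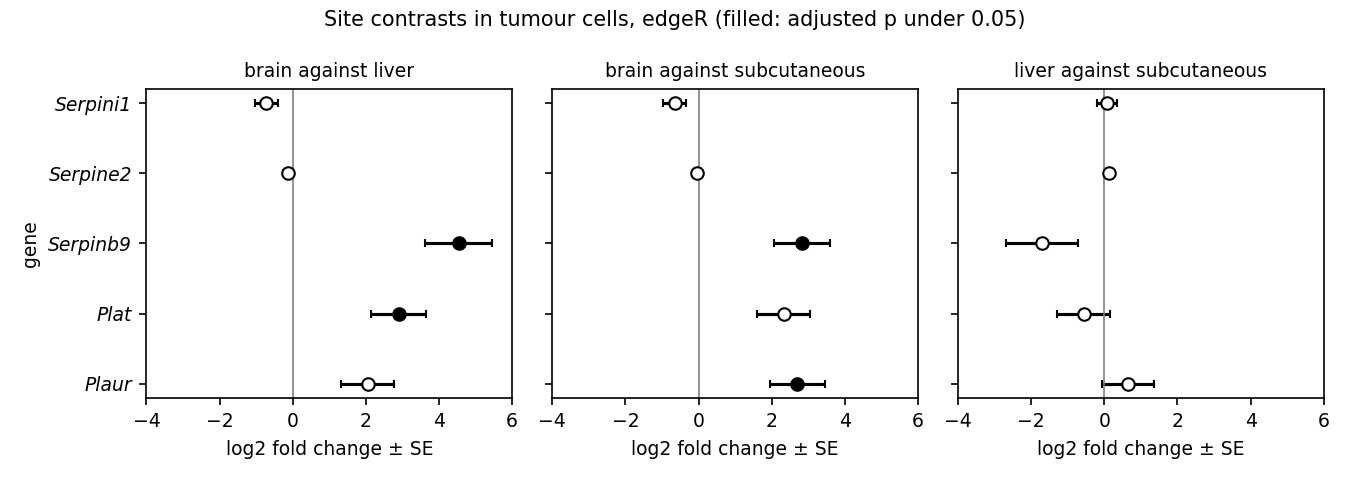
Log2 fold change with its standard error from edgeR for the 5 tested members in the 3 site contrasts, with positive values higher in the site named first. Filled points passed an adjusted p of 0.05. Serpinb9 and Plat are filled for brain against liver, Serpinb9 and Plaur for brain against subcutaneous tissue, and none for liver against subcutaneous tissue.

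The tumour cells fell into 19 clusters, labelled T1 to T19, and the members were unevenly spread over them. Clusters were made from these cells with all genes, so their levels are a description. T4 and T5, led by Cited4, Bst2, Des and Clca3b and by Tm4sf1, Cdc20 and En1, held 34.6% of brain, 0.154% of liver and 2.98% of subcutaneous tumour cells. They held 57 of 81 Plat UMIs (70.4%) and 26 of 36 Serpinb9 UMIs (72.2%) of brain tumour cells, but 21.7% of those of Serpini1 and 24.9% of those of Serpine2. In T4, Plat stood at 2.52 and 2.67 CPM in the brain libraries and at 3.16 CPM in subcutaneous library 1. Serpinb9 stood there at 1.01, 1.67 and 1.81 CPM in the same order. In T5, Plat stood at 1.31 and 3.68 CPM in brain, and Serpinb9 at 1.31 and 0.736 CPM, while neither had a UMI in the 102 cells of subcutaneous library 1, where the interval reaches 2.74 CPM. Such levels were not confined to T4 and T5. Over all libraries, Plat stood at 2.40 CPM in T9 (8 UMIs) against 2.42 CPM in T5. Serpinb9 stood at 0.792 CPM in T15 (3 UMIs) against 0.841 CPM in T5. Among clusters with at least 50 cells in a library, Plat was highest in T9 of subcutaneous library 1 (3.88 CPM). Serpinb9 was highest in T15 of liver library 3 (2.75 CPM). Without T4 and T5, Plat no longer passed in brain against liver (log2 1.95, edgeR adjusted p = 0.167), and Serpinb9 had too few UMIs to be tested. The macrophage and microglia markers summed to 79.6 CPM in T4 and 71.9 CPM in T5, against 54.0 CPM over all tumour cells. The fibroblast markers summed to 25.4 and 21.8 CPM against 7.07 CPM, the astrocyte markers to 66.2 and 40.2 CPM against 36.9 CPM, and the oligodendrocyte markers to 133 and 169 CPM against 95.4 CPM. Endothelial markers (6.79 and 9.36 CPM against 10.8 CPM) and pericyte or smooth muscle markers (0.776 and 0.946 CPM against 1.84 CPM) were not higher there. The part of these host transcripts in the levels of T4 and T5 was not tested. The share of brain Plat cells with a UMI of the macrophage and microglia markers was 40.0% (28 of 70), against 45.8% of all brain tumour cells. This share does not cover the other marker lists.

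Plaur lay elsewhere. T16, 138 cells led by Cd74, H2-Aa and C1qa in which 13 of 14 macrophage and 11 of 14 tumour markers were detected, held Plaur at 25.1 CPM, and its macrophage markers summed to 7916 CPM. T6, 114 cells led by Bpifa1, Igfbp7, Sparc and Dcn, held Plat at 18.1 CPM (95% counting interval 11.5 to 27.2), and its fibroblast markers summed to 928 CPM and its endothelial markers to 395 CPM. T6 and T16 together made up 1.90% of brain tumour cells and 44.6% of their Plaur UMIs (33 of 74). Without them, Plaur in brain against subcutaneous tissue was 1.93 (edgeR adjusted p = 0.0818), while Plat in the same contrast was 2.68 (adjusted p = 0.0220). The doublet caller marked 15 cells in all, so it could not sort the cells of T6 and T16. With the 4% of tumour cells of highest doublet score left out of each library, brain against subcutaneous tissue was 2.62 for Plaur (edgeR adjusted p = 0.0406) and 2.72 for Plat (adjusted p = 0.0237). That score came from the same caller, so the part of doublets in these values was not tested.

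Serpini1 was lowest in T4 (11.5 CPM) and high in the dividing clusters T10 (50.8 CPM, led by Top2a and Cdk1) and T12 (45.6 CPM, led by Cenpa and Ccnb2). The highest level of both outer serpins was in T18, 270 shallow cells with a median of 2344 UMIs, at 99.5 CPM for Serpini1 and 342 CPM for Serpine2. Serpine2 was lowest in T9 (69.7 CPM), led by Txnip, Ddit4 and Cdkn1a. Within the 5 clusters that had at least 50 cells in every library, no site difference of Serpini1 passed the threshold. In T10 it stood at 40.2 ± 11.4 CPM in brain (SD, n = 2), 48.5 ± 9.95 in liver (n = 3) and 48.3 ± 10.9 in subcutaneous tissue (n = 3). In T13 the means were 14.7 ± 0.919 CPM, 25.2 ± 3.78 CPM and 24.0 ± 10.5 CPM in the same order, where brain lay below all liver libraries. The log2 difference of brain against liver was -0.25 in T10, -0.04 in T12, -0.77 in T13, -0.26 in T14 and -0.07 in T17. Over all tumour cells without T4 and T5 it was -0.42 (edgeR adjusted p = 0.444).

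**Figure D3:**
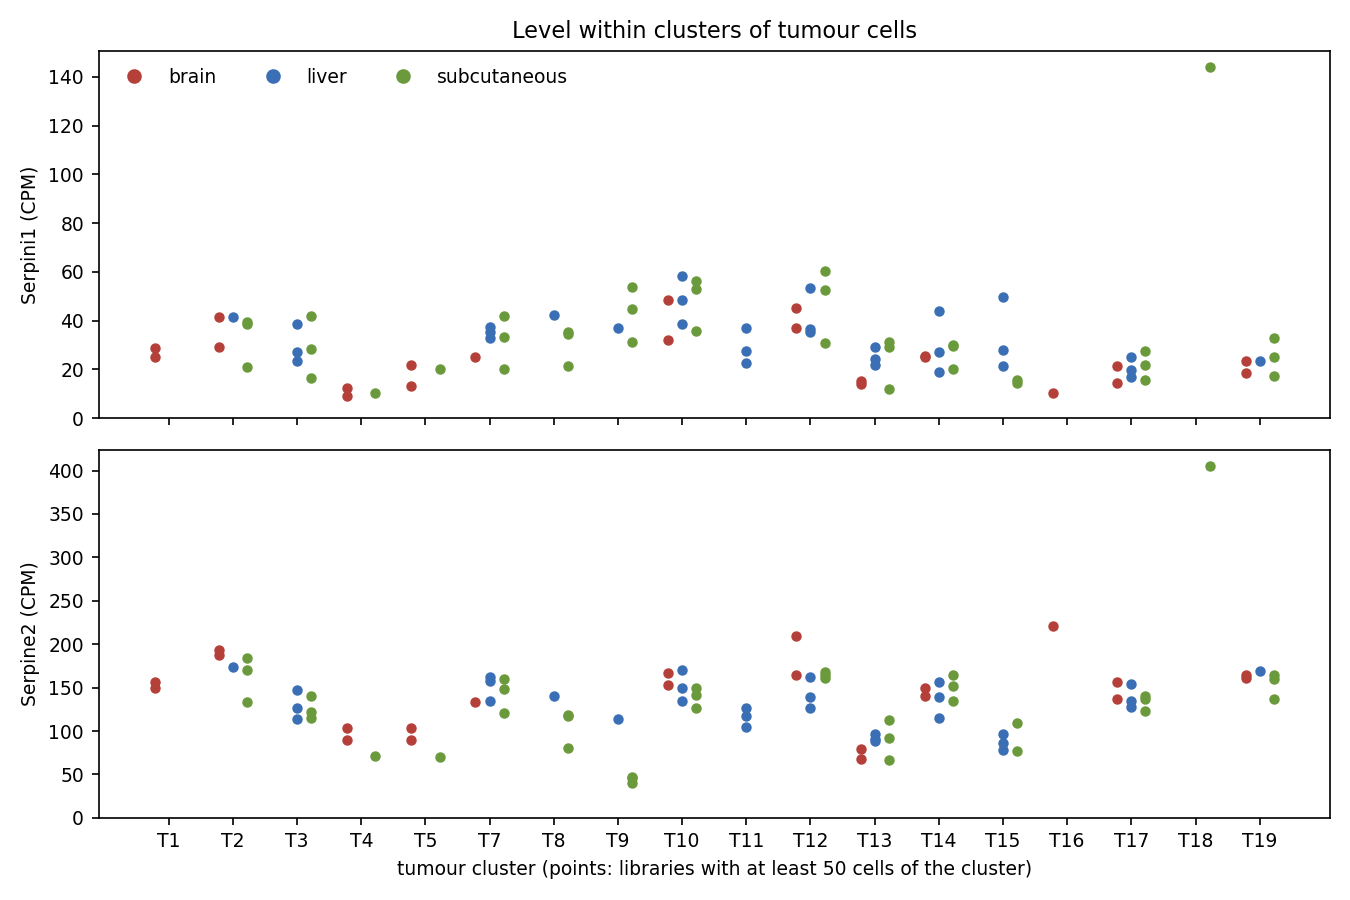
Serpini1 (top) and Serpine2 (bottom) in CPM within clusters of tumour cells, with linear axes from 0. Each point is a library with at least 50 cells of the cluster, coloured by site. Serpini1 is low in T4 and high in T10 and T12 at each site shown, and the sites overlap in most clusters.

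Over 91 units of tumour cluster and library, Serpini1 ranged from 9.07 to 144 CPM and Serpine2 from 40.6 to 405 CPM. On log2(CPM + 1), and among 7975 genes with a mean of at least 10 CPM, the genes most like Serpini1 were Sema3c (Pearson r 0.737), Rer1 (0.702) and Thoc6 (0.701). Those most like Serpine2 were Dner (0.818), Dbn1 (0.785) and Lamp1 (0.783). Plaur went with the macrophage genes C1qc (0.734), Fcer1g (0.699) and Tyrobp (0.697). Plat, listed with Smarca5, eGFP and Hmgxb4 (0.576 to 0.626), and Serpinb9, listed with Edn3, Abhd8 and Use1 (0.688 to 0.697), had medians of 0 CPM over the units. Among the members themselves r was 0.390 for Serpini1 with Serpine2, -0.362 for Serpini1 with Serpinb9, 0.364 for Serpinb9 with Plat and 0.594 for Plau with Plaur. The units share libraries and differ in depth, and these values are descriptions.

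Cells under the tumour threshold held more of both activators, of the receptor and of Serpinb9 than tumour cells did, though not in every library. Serpini1 was lower in cells under the threshold once tumour-like clusters were left out. With the library as a block over 8 libraries, the edgeR log2 difference of cells under the threshold against tumour cells was 6.31 for Plaur (SE 0.538, adjusted p = 1.02e-06) and 5.15 for Plat (SE 0.6, adjusted p = 1.58e-05). It was 5.82 for Plau (SE 0.969, adjusted p = 0.000698) and 6.67 for Serpinb9 (SE 0.693, adjusted p = 5.43e-06). These 4 of 6 members were called as higher, where 48.4% of 14263 genes were called, 22.8% as higher and 25.7% as lower. The median log2 difference of all genes stood at -0.20 in this fit and at 0.11 with size factors of the DESeq2 type, and the 4 calls held with both. By library, all 4 genes were higher in cells under the threshold in both brain libraries and in subcutaneous library 1. Elsewhere these cells held no Plau UMI, and Plau was found in only 8 tumour cells. They also held no Plat UMI in liver library 2 and subcutaneous library 2. Plaur had none there in subcutaneous libraries 2 and 3, and Serpinb9 none in liver library 1 and subcutaneous library 3. For Serpine2 (0.31, SE 0.219, adjusted p = 0.251) and Serpini1 (-0.44, SE 0.462, adjusted p = 0.455) the threshold was missed. With the tumour-like clusters left out, in the 4 libraries that kept at least 50 cells, Serpini1 was lower by a log2 difference of -3.34 (edgeR adjusted p = 0.000259). Serpine2 stayed uncalled there (0.56, adjusted p = 0.597).

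In both brain libraries and in subcutaneous library 1, many UMIs of the activators, the receptor and Serpinb9 lay in the few cells under the threshold. In brain library 1, cells under the threshold held 84.5% of 168 Plat UMIs, 91.3% of 23 Plau UMIs, 90.1% of 556 Plaur UMIs and 89.8% of 118 Serpinb9 UMIs. In brain library 2 the shares were 36.8% of 87, 66.7% of 9, 77.1% of 83 and 59.3% of 59. In subcutaneous library 1 they held 75.5% of 102 Plat UMIs, 87.3% of 142 Plaur UMIs and 86.8% of 53 Serpinb9 UMIs. In liver they held 1 of 6, 0 of 6 and 2 of 14 Plat UMIs. In subcutaneous libraries 2 and 3 they held 0 of 7 and 3 of 8. Of the Plaur UMIs they held 2 of 18, 13 of 33 and 13 of 24 in liver. In subcutaneous libraries 2 and 3 they held 0 of 8 and 0 of 7 of these. Of the few Serpinb9 UMIs they held 0 of 2, 4 of 4 and 6 of 7 in liver. In subcutaneous libraries 2 and 3 they held 1 of 5 and 0 of 1 of them. For Serpini1 they held 2.70% and 0.324% in the brain libraries, and for Serpine2 33.8% and 5.01%. Fewer cells of a type and less RNA per cell cannot be told apart in these shares.

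**Figure D4:**
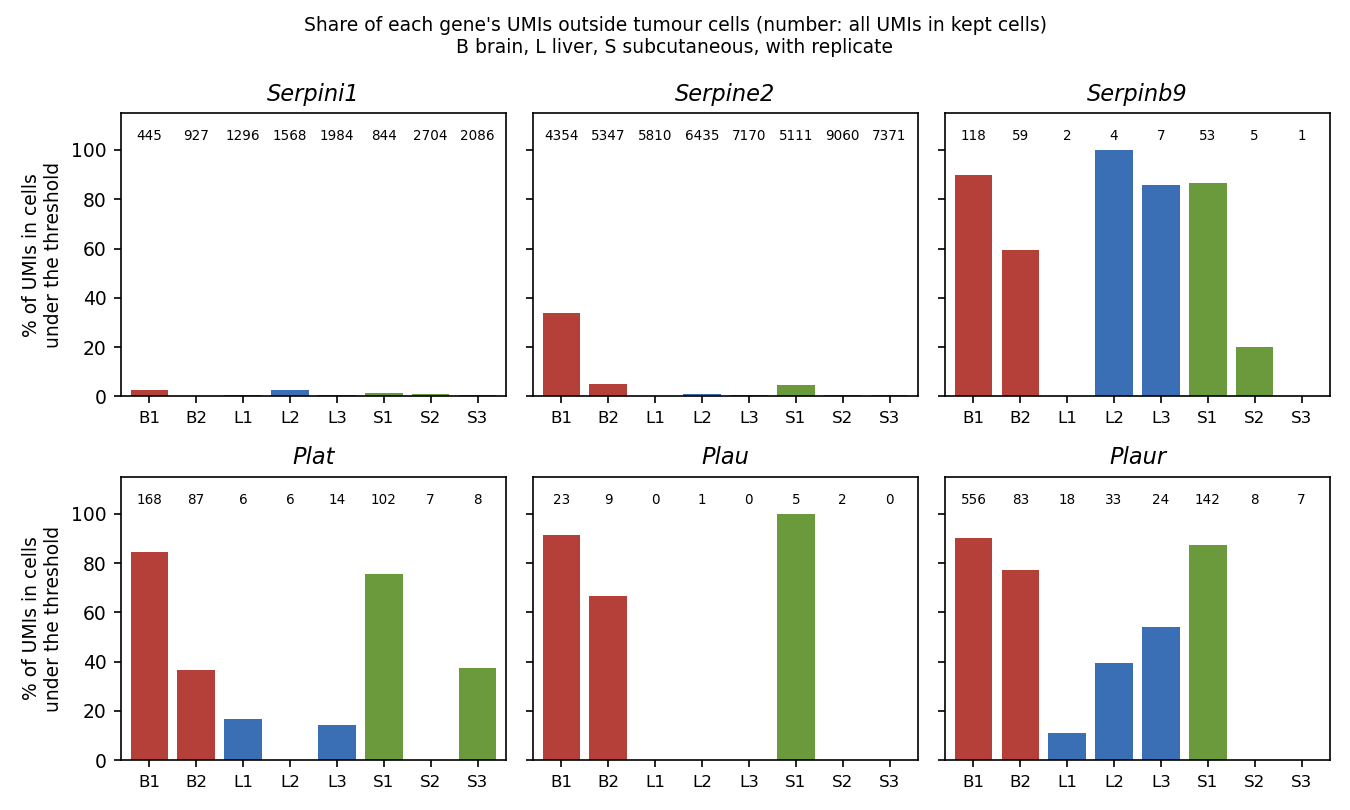
Percentage of each member's UMIs in kept cells that lay in cells under the tumour threshold, per library (B brain, L liver, S subcutaneous, with the replicate number), and the number of UMIs above each bar. Bars start at 0. Plat, Plaur and Serpinb9 have tall bars in brain library 1 and subcutaneous library 1. Serpinb9 also has them in liver libraries 2 and 3, from 4 and 7 UMIs, whereas Serpini1 stays at or under 2.70%.

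Plat in host cells was a gene of vessels, stroma and astrocytes. The endothelial-like cluster H13 (81 cells) held 302 CPM (95% counting interval 245 to 369), with 344 CPM in brain library 1 and 269 CPM in brain library 2. The fibroblast-like clusters H14 (15 cells) and H21 (70 cells, all from subcutaneous library 1) held 1140 CPM (810 to 1558) and 259 CPM (202 to 326), and the pericyte or smooth muscle-like cluster H15 (16 cells) held 292 CPM (199 to 412). The astrocyte-like cluster H4 (42 cells) held 57.1 CPM (22.9 to 118) and the oligodendrocyte-like cluster H18 (26 cells) 34.0 CPM (11.1 to 79.5). In contrast, 1 Plat UMI was found in the 888 cells of the macrophage-like and microglia-like clusters, whose log2 difference from tumour cells was -1.97 (edgeR adjusted p = 0.201).

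Plaur and Plau were found in myeloid cells. The microglia-like cluster H9 (281 cells, led by Tmem119 and P2ry12) held Plaur at 18.9 CPM (12 to 28.3), with 22.8 and 3.92 CPM in the brain libraries, whereas the microglia-like cluster H10 (77 cells, led by Spp1, Ccl4 and Ccl3) held 228 CPM (192 to 267). Of the H10 cells 73 came from brain library 1, so this difference rests on that library. H10 also carried Plau at 24.6 CPM (14.1 to 40.0) from 16 UMIs in 6 cells. H5 (222 cells, led by Ly6c2 and Ccr2) held Plaur at 182 CPM (161 to 206), with 225 CPM and 84.5 CPM in the brain libraries and 163 CPM in subcutaneous library 1. The neutrophil-like cluster H12 (19 cells) held 483 CPM (257 to 826). Of the cells of macrophage-like and microglia-like clusters thinned to 3000 UMIs, 22.8% and 11.3% held a Plaur UMI in the brain libraries and 32.0% in subcutaneous library 1. All 62 such cells of subcutaneous library 1 lay in H5, whereas the brain cells lay mostly in H2, H9 and H10, so these shares are of different cells. Outside the myeloid cells, H13 held Plaur at 94.4 CPM (63.7 to 135) and H14 at 818 CPM (544 to 1183), from 28 UMIs in 4 of 15 cells.

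Serpinb9 had its highest level in H17, 32 MHC class II antigen-presenting-like cells led by Ccr7 and holding Fscn1 among the leading genes, a pattern known from mature dendritic cells. H17 held 704 CPM (582 to 843) from 117 UMIs in 23 cells. The other MHC class II antigen-presenting-like cluster of size, H7 (188 cells), held 15 CPM (9.41 to 22.7). The endothelial-like cluster held 59.8 CPM (36.0 to 93.4), at 60.9 CPM and 97.8 CPM in the brain libraries, and the pericyte or smooth muscle-like cluster 63.8 CPM (25.6 to 131).

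Serpine2 was not restricted to tumour cells. It stood at 1212 CPM (1015 to 1436) in H15, 760 CPM (496 to 1113) in H14, 717 CPM (575 to 884) in H4, 553 CPM (469 to 648) in H21 and 327 CPM (267 to 397) in H13. The myeloid clusters differed among themselves. H9 and H10 held 462 CPM (424 to 501) and 578 CPM (521 to 640), and H2 (308 macrophage and microglia-like cells) held 523 CPM (475 to 574). H2 stood at 549 CPM in brain library 1, which gave 269 of its cells, and at 308 CPM in brain library 2. H5 held 15 CPM (9.38 to 22.7) and H7 6.14 CPM (2.81 to 11.7). In H9 the level was 435 CPM and 560 CPM in the brain libraries, and in H5 it was 23.4 CPM and 3.52 CPM in brain and 8.01 CPM in subcutaneous library 1. The cells with low Serpine2 occurred within the same brain libraries as those with high Serpine2.

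Serpini1 gave no UMI in H2, H5 and H7, where a count of 0 allows 3.64, 2.04 and 2.05 CPM, and 2 UMIs in H9. Among the clusters not led by tumour markers, the highest level was 36.5 CPM in H15 (4 UMIs, 9.93 to 93.3). The 3 tumour-like clusters under the threshold, H11, H16 and H19, held Serpini1 at 78.5, 27.7 and 12.6 CPM and Serpine2 at 130, 95.5 and 42.6 CPM. Plat, Plau, Plaur and Serpinb9 had 0 UMIs in H16 and H19, and 4, 0, 1 and 1 UMIs in H11.

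**Figure D5:**
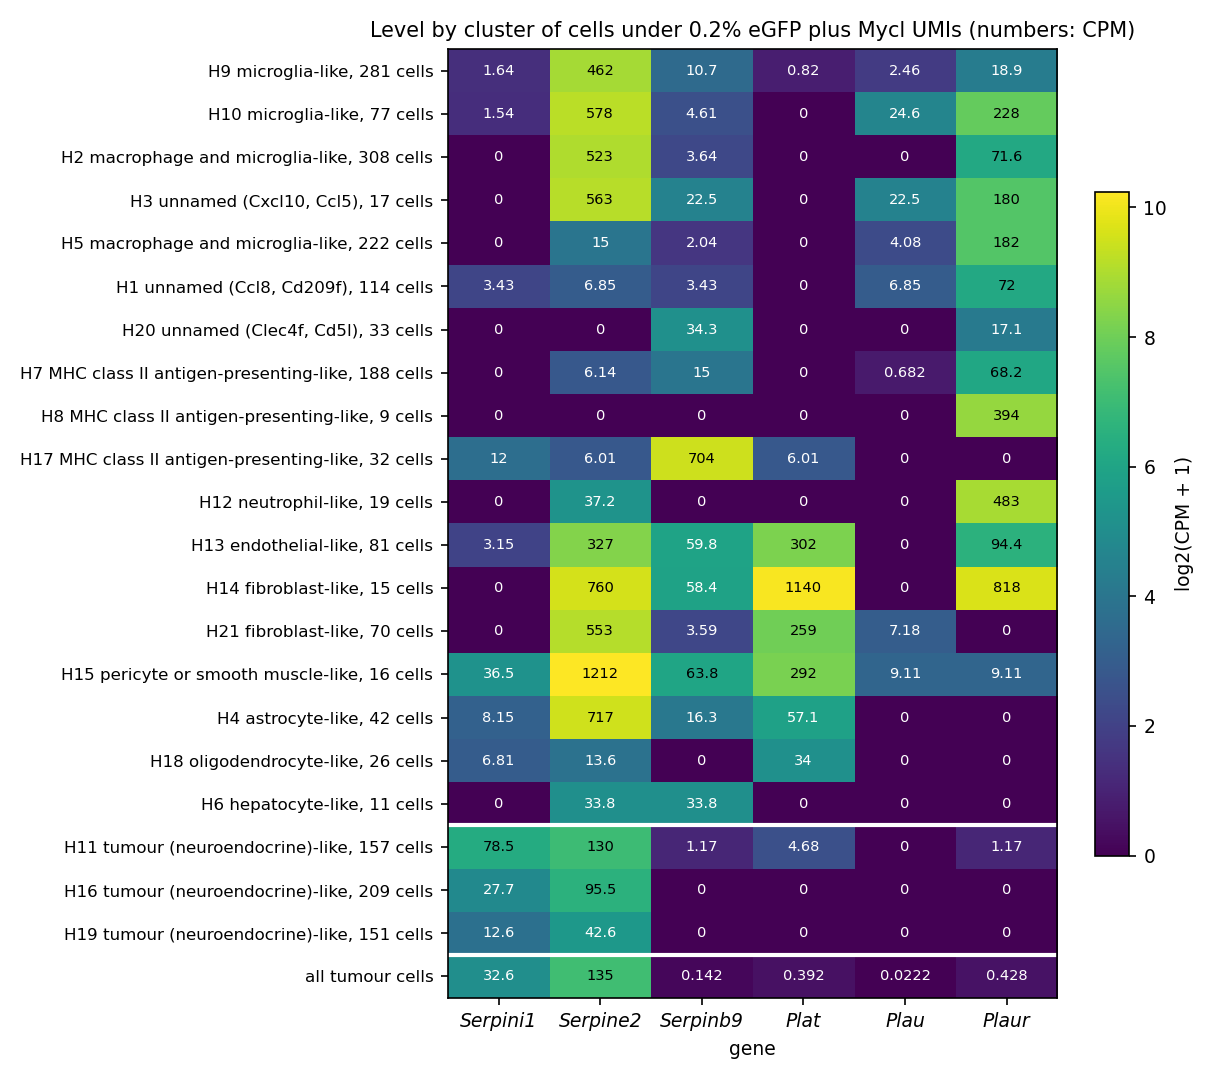
Level of each member in the 21 clusters of cells under the tumour threshold, colour-coded as log2(CPM + 1) with the CPM printed in each field, and all tumour cells in the bottom row. The 3 tumour-like clusters stand between the white lines. Plat is high in the endothelial-like, fibroblast-like and pericyte or smooth muscle-like rows, Plaur in myeloid rows and Serpinb9 in H17.

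Other genes of the pathway were read from lists by role. Plasminogen itself, Plg, the substrate of both activators, stood at 0.0129 ± 0.0183 CPM (SD, n = 2) in brain tumour cells and 0.0142 ± 0.0123 CPM (n = 3) in liver. Of its binding and clearance partners, 15 of 19 were tested. The counts of this list and of the following ones stand against 21.8% of all tested genes called in brain against liver, 15.1% in brain against subcutaneous tissue and 2.83% in liver against subcutaneous tissue. In brain against liver 3 rose and 2 fell, with a median log2 fold change of 0.43 against 0.00 for all genes, and in brain against subcutaneous tissue 2 rose and 2 fell (median 0.17 against -0.00). In liver against subcutaneous tissue 0 rose and 1 fell (median -0.27 against -0.01). Lrp1, the endocytic receptor that clears activator and serpin complexes, was at 5.99 and 4.50 CPM in brain and 1.64, 1.19 and 1.04 CPM in liver (log2 1.90, SE 0.381, edgeR adjusted p = 0.00955). Without brain library 1 the call was lost (adjusted p = 0.0647), and without tumour clusters T4 and T5 the value was 1.51 and missed the threshold (adjusted p = 0.0553). Eno1, a glycolytic enzyme that can bind plasminogen at the cell surface, was at 427 and 340 CPM in brain and 580, 769 and 861 CPM in liver (log2 -1.05, SE 0.221, adjusted p = 0.0111). That call was lost without brain library 1 (0.0599) or 2 (0.115) and without T4 and T5 (-0.65, adjusted p = 0.0805). The subcutaneous libraries held 849, 1366 and 1175 CPM of Eno1, and brain was lower there too (log2 -1.56, SE 0.226, adjusted p = 0.00444), though not without brain library 2 (adjusted p = 0.0545). Below the rule for named genes, and chosen after their values were seen, the other called partners were Vtn, which encodes vitronectin, and Itgam, an integrin chain of myeloid cells, both higher in brain against liver, and Mrc2, a collagen receptor, lower there. Vtn stood at 2.37 ± 0.415 CPM in brain (SD, n = 2), 0.591 ± 0.0666 in liver (n = 3) and 0.440 ± 0.326 in subcutaneous tissue (n = 3) and was also called as higher than in the last. Itgam stood at 1.83 ± 1.97 CPM in brain and 0.0351 ± 0.0434 CPM in liver. Vldlr, another receptor of the Lrp1 family, was lower in brain than in subcutaneous tissue (log2 -1.57, edgeR adjusted p = 0.0381, lost without 5 of the 8 libraries) and was lower in liver than in subcutaneous tissue (log2 -2.42, SE 0.376, edgeR adjusted p = 0.0189), a call lost without liver library 2 or 3 or subcutaneous library 2 (adjusted p 0.0521, 0.0525 and 0.0582).

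Of the other serpins 6 of 27 were tested. In brain against liver 2 rose and 0 fell (median 1.42), in brain against subcutaneous tissue 1 rose (median 1.48), and in liver against subcutaneous tissue none was called (median -0.48). Serpinb1a, an intracellular serpin of myeloid cells named after its values were seen, was the other one called against liver (log2 3.11, edgeR adjusted p = 0.0300) and the one called against subcutaneous tissue (log2 2.77, adjusted p = 0.0481). Serpinf1, which encodes pigment epithelium-derived factor, stood at 3.69 and 2.66 CPM in brain and at 0.263, 0.293 and 0.367 CPM in liver (log2 3.24, SE 0.763, edgeR adjusted p = 0.0174). Subcutaneous library 1 held 3.05 CPM of it, near the brain level, and the other subcutaneous libraries 0.774 and 0.328 CPM. The call for brain against liver was lost without any 1 of the 5 brain and liver libraries (adjusted p from 0.0503 to 0.0883).

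Of substrates of plasmin and related proteases, 19 of 27 were tested. In brain against liver 3 rose and 3 fell (median -0.22), in brain against subcutaneous tissue 1 rose and 4 fell (median -0.15), and in liver against subcutaneous tissue 2 rose and 1 fell (median 0.10). The called substrates below the rule, named after their values were seen, were Mmp2 (0.79) and Fgb (a fibrinogen chain at 0 in all brain and subcutaneous libraries) in brain against liver, Pdgfc (-2.40) in brain against subcutaneous tissue, and Fgb and Tgfb1 (0.57) in liver against subcutaneous tissue. Tgfb2, a latent growth factor, stood at 14.5 and 22.8 CPM in brain and 2.17, 1.69 and 2.74 CPM in liver (log2 2.98, SE 0.506, edgeR adjusted p = 0.00650). The subcutaneous libraries held 16.6, 5.79 and 5.30 CPM, the first above brain library 1, and brain was not called against them (log2 1.02, adjusted p = 0.187). Mmp14, a membrane metalloproteinase, was at 3.23 and 4.52 CPM in brain and between 0.597 and 1.39 CPM in all other libraries (log2 1.84 against liver, SE 0.359, adjusted p = 0.00861). Without T4 and T5, Mmp14 was at 0.43 and was not called (adjusted p = 0.518), and without brain library 2 it missed the threshold (1.57, adjusted p = 0.0687). The matrix genes Lama5, a laminin chain, and Agrn, agrin, were lower in brain than in liver. The log2 value of Lama5 was -1.59 with an SE of 0.303 (edgeR adjusted p = 0.00770), and that of Agrn was -1.24 with an SE of 0.199 (adjusted p = 0.00400). Lama5 missed the threshold without brain library 2 (-1.26, adjusted p = 0.0765). Bdnf, a neurotrophin whose precursor plasmin can cut, was at 2.63 and 3.41 CPM in brain and 6.88, 11.3 and 10.6 CPM in subcutaneous tissue (log2 -1.66, SE 0.268, adjusted p = 0.00680), a call lost without brain library 1 (adjusted p = 0.0699). Liver, at 4.62, 3.81 and 3.32 CPM of Bdnf, was also lower than subcutaneous tissue (log2 -1.18, adjusted p = 0.0312), and brain against liver was not called (-0.48, adjusted p = 0.220). The liver call was lost without any 1 library other than subcutaneous library 1 (adjusted p from 0.0557 to 0.161).

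Of other serine proteases of the cell surface or clotting, 10 of 16 were tested. In brain against liver 3 rose and 3 fell (median -0.39), in brain against subcutaneous tissue 3 rose and 1 fell (median 0.02), and in liver against subcutaneous tissue 1 rose and 0 fell (median 0.45). The membrane protease Tmprss4 was higher in liver than at both other sites. It stood at 23.1, 31.3 and 21.3 CPM there, at 4.10 and 5.53 CPM in brain and at 4.58, 4.30 and 6.76 CPM in subcutaneous tissue. The log2 fold change was -2.49 for brain against liver (SE 0.268, edgeR adjusted p = 0.000947) and 2.39 for liver against subcutaneous tissue (SE 0.224, adjusted p = 0.00185). The 3 proteases higher in brain in both brain contrasts, named after their values were seen, were F7, Htra1 and Klk6, at log2 values of 1.77, 2.80 and 6.85 against liver. Klk6, a kallikrein of oligodendrocytes, stood at 1.24 ± 1.38 CPM in brain (SD, n = 2). The oligodendrocyte markers summed to 199 to 266 CPM in brain tumour cells and 61.7 to 75.1 CPM elsewhere, and their part in the result was not tested. St14, matriptase, was at 12.5 and 11.2 CPM in brain and 22.6, 26.1 and 23.8 CPM in liver (log2 -1.14, SE 0.202, adjusted p = 0.00596). Its partner Prss8, prostasin, stood at 2.31 and 3.10 CPM in brain against 6.54, 8.09 and 7.01 CPM in liver (log2 -1.52, SE 0.325, adjusted p = 0.0121). St14 missed the threshold without brain library 2 (adjusted p = 0.0654), and Prss8 without brain library 1 (0.108) or 2 (0.0613). Without T4 and T5 the values of St14 and Prss8 were -0.63 (adjusted p = 0.0651) and -1.0 (adjusted p = 0.0757).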

How the data were processed

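Single-cell 3′ RNA libraries of 8 allografts were measured. Each library had 1 deposited matrix of whole-number UMI counts, per the file headers (matrix software version 3.0.0), and the submitters' processing notes name Cell Ranger, STAR and mm10. The shallowest deposited cell held 501 UMIs. A minimum of 500 genes and a maximum of 10% mitochondrial UMIs left 3376 to 6406 cells per library, with medians of 7972 to 10542 UMIs per tumour cell. Scrublet, at an expected rate of 0.04, marked 15 cells (0.0408%) and thus had not worked, so doublets were not removed. Tumour cells and the rest were clustered separately (scanpy 1.11.5, 2000 variable genes, 30 components, 15 neighbours, Leiden at resolution 1.0). Names needed 3 markers detected in 20% of cells, from 16 lists.

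UMI counts were summed per library and tested in 1 edgeR 4.0.16 model (TMM, filterByExpr, robust quasi-likelihood, residual degrees of freedom 5, with a biological coefficient of variation of 17.9%), checked on simulated data. In the simulated data 16 of 179 calls were false in brain against liver and 9 of 169 in brain against subcutaneous tissue. Of 2-fold changes 67% and 64% were recovered, and of 4-fold changes 96% in both. For cells under the threshold against tumour cells 14 of 155 calls were false, and 43% of 2-fold changes were recovered. Differences near 2-fold could thus be missed. In each of these comparisons the share of false calls was above the threshold of 0.05. The changed genes were drawn from genes of at least 1 CPM by site, and of at least 10 CPM for cells under the threshold. Serpinb9, Plat and Plaur had means of 0.186, 0.489 and 0.588 CPM in tumour cells. The shares recovered in the site comparisons therefore do not cover them. Genes not tested held 0.0133% of UMIs. Intervals cover counting error only. Cells under 0.2% were compared with tumour cells with the library as a block. Every member was named, as was each list gene with a mean of at least 1 CPM that was called with at least a 2-fold difference. The members and lists were chosen with earlier results of these data known. The alternatives were other size factors, filters, cell sets and replicates, and DESeq2 1.42.0. A few items are not reported here.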

Additional observations from a re-analysis of the deposited data

Results flagged for a closer look

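Serpine2 in cells under the tumour threshold differed from tumour cells in opposite directions at 2 sites. The difference in CPM was 181 in brain library 1 and 52.5 in brain library 2, and -45.7, -63.3 and -72.3 in liver libraries 1, 2 and 3. The difference between the sites was not tested. Tumour-like clusters held 80.7%, 67.3% and 80.0% of these cells in liver and 2.40% and 5.13% in brain. Of the 20, 52 and 29 Serpine2 UMIs of these cells in liver, 0, 1 and 0 lay outside the tumour-like clusters. In brain 1464 of 1472 and 257 of 268 lay outside them. The liver values are thus almost wholly those of tumour-like clusters. The part of these clusters in the difference was not tested.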

How the results depend on the processing

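Low counts and few libraries limit the calls of Serpinb9, Plat and Plaur. In brain against liver 2 members were called. The count was 4 with only the 2 sites compared, 1 with the replicate block, 0 after thinning to 3000 UMIs and 0 without tumour clusters T4 and T5. It was 1 in cells without UMIs of the 22 macrophage and microglia genes of both lists, 1 in cells without UMIs of the 24 vessel and stroma genes, where Serpinb9 had too few UMIs to be tested, and 1 to 4 when single libraries were left out. In brain against subcutaneous tissue 2 were called, against 0 with only the 2 sites, 0 with the replicate block, 0 after thinning and 0 without T4 and T5. It was 1 with equal cell numbers, 1 in cells without the 14 macrophage and microglia genes 1 without both lists and 1 without the vessel and stroma genes, and 0 to 4 with libraries left out. Serpinb9, Plat and Plaur fell under the filter on low counts after thinning. Alternatives on clusters, on both lists and on vessel and stroma genes were chosen after seeing the data.

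Correlations of deviations from the site mean were -0.251 to 0.262 for same-numbered libraries of different sites. For libraries of different number they were -0.269 to 0.298. The deviations of the 2 brain libraries mirror each other by construction, so this check cannot decide whether replicate numbers pair the libraries. The replicate block gave 1378 called genes instead of 2099 in brain against subcutaneous tissue and 229 instead of 394 in liver against subcutaneous tissue. Over all genes, leaving out libraries gave 1112 to 4557 (brain against liver), 383 to 4754 (brain against subcutaneous) and 33 to 1024 (liver against subcutaneous). Without T4 and T5 the first 2 were 1180 and 850. Only the 2 sites gave 728 in brain against subcutaneous tissue, and DESeq2 gave 1055 in liver against subcutaneous tissue.

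Signs turned for the uncalled values of Serpine2, Serpini1 and Plat between sites, and for Plat, called as higher in cells under the threshold, in 1 set of host clusters. Serpine2 in brain against liver was 0.09, 0.38, 0.11 and 0.10 in T10, T12, T14 and T17 and 0.08 without T4 and T5. In brain against subcutaneous tissue it was 0.26, 0.20, 0.04 and 0.22 in these clusters, 0.16 without T4 and T5, 0.04 with the replicate block, 0.01 without vessel and stroma UMIs and from -0.12 to 0.05 with single libraries left out (0.01 and 0.05 without subcutaneous libraries 3 and 2). Serpini1 was 0.09 in T14 in that contrast. In liver against subcutaneous tissue, Serpini1 ranged from -0.20 to 0.27 with single libraries left out (-0.12 without liver library 3, -0.20 without subcutaneous library 1) and was -0.26 in T12, Serpine2 -0.18 in T12 and -0.07 in T14, and Plat ranged from -1.05 to 0.71, the latter without subcutaneous library 1. Plat in macrophage-like and microglia-like clusters against tumour cells was -1.97. The causes were not tested.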
